A study of Homo sapiens with 6 samples.

Results

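The genes described here encode enzymes that add methyl groups to histones or remove them, with close relatives and partners, measured in SK-N-BE(2) cells after infection with a hairpin lentivirus against BRG1. They were taken by symbol from the genes with a name on the array: symbols made of KDM, KMT2, KMT5, SETD, PRMT, EZH, NSD, EHMT, SUV39H or PRDM with their number or letter, plus SUZ12. The rule also names DOT1L and EED, which were not analysed here, and it leaves out UTY. It found 61 of 14883 named genes, of which 19 are KDM demethylases, 30 methyltransferases, 11 PRDM genes and 1 (SUZ12) a Polycomb subunit without enzyme activity of its own. SK-N-BE(2) is an established human neuroblastoma line known for amplified MYCN. The shBRG1 group (n = 3) received a pLKO lentivirus with a hairpin against BRG1, the SWI/SNF ATPase encoded by SMARCA4, and the NSC group (n = 3) received the pLKO lentivirus with a non-silencing control hairpin. Both groups were grown in the same serum-rich medium, and RNA was taken 48 h after infection, with 200 ng per Affymetrix array. The labels name 1 line and 1 construct per group and do not give the hairpin's sequence, and the level of SMARCA4 itself was not analysed here.

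Histone methylation marks chromatin without changing its charge, and its meaning depends on the residue. Methylation of H3K4 by KMT2 and SETD1 enzymes marks promoters and enhancers, methylation of H3K9 by EHMT and SUV39H enzymes and of H3K27 by Polycomb repressive complex 2 (PRC2) accompanies silencing, and H3K36 and H4K20 have writers of their own. Most KDM enzymes are Jumonji-type dioxygenases that need iron and 2-oxoglutarate, whereas KDM1A and KDM1B are flavin-dependent oxidases. PRMT enzymes methylate arginines of histones and of many other proteins. In neuroblastoma, PRC2 and KDM1A are known as inhibitor targets, and SWI/SNF is known to oppose Polycomb on chromatin.

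The deposited values are log2 levels after RMA, so a difference of 1 is a factor of 2.00 only as far as the array responds in proportion. Array medians over 52299 probe sets ran between 3.77 and 3.84, and arrays correlated more closely within groups (Pearson r 0.9907 to 0.9925 across probe sets) than between them (0.9860 to 0.9881). Of the neuroblastoma markers 14 of 16 were measured, at mean levels between 7.66 and 11.3, and 7 of them were lower in shBRG1 cells, with summed levels of 133.5 to 134.2 in shBRG1 arrays and 136.5 to 137.0 in NSC arrays. Endothelial and blood cell markers were dim (3 of 5 and 2 of 6 measured, mean levels 2.23 to 4.68), with sums of 8.49 to 8.73 and 8.29 to 9.08 in shBRG1 arrays, against 8.16 to 8.996 and 8.53 to 8.91 in NSC arrays. Of the fibroblast list 3 of 8 were measured, with summed levels of 21.55 to 21.95 in shBRG1 arrays and 20.75 to 21.27 in NSC arrays: DCN and LUM rose (0.44 and 0.39), and THY1 had a change of -0.069 (adjusted p = 0.583). Of 6 Schwann and glial markers 4 were measured, with sums of 15.20 to 15.63 in shBRG1 arrays and 16.43 to 16.77 in NSC arrays, and FOXD3 fell (-0.24). Only 1 of these 4 lay at or above the median level of named genes, and FOXD3 was dim (mean level 2.80), where values may be background. The part of these shifts in the results below was not tested, and in bulk RNA fewer cells of a kind and less RNA per cell cannot be told apart.

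Every one of these genes that passed the test was higher in shBRG1 cells. Of the 61 genes, 19 rose, 0 fell and 42 did not pass an adjusted p of 0.05 (limma, adjusted over all named genes). The risers were 8 of 19 demethylases, 10 of 30 methyltransferases and 1 of 11 PRDM genes. Over all 14883 genes 17.0% were called, 9.78% as higher and 7.19% as lower, against 31.1% of these genes as higher. Most of these genes are well expressed, however, and among the 7442 named genes at or above the median level 29.2% were called (17.4% higher, 11.9% lower), against 19 of the 49 members in that range (38.8%, all higher). The median change was 0.10 over all members and 0.20 over the 49 brighter ones, against 0.0059 and 0.057 over all genes and over all brighter genes. At an unadjusted p of 0.05, 24 members were higher and 7 lower. Over all 14883 genes 2603 were higher and 1925 lower at that p, and of the 7442 brighter ones 2145 and 1322.

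The changes were mostly modest. The 19 rises ran from 1.21-fold (KDM1A) to 2.09-fold (KDM6B), and 6 reached 1.5-fold. Of all named genes 1.86% were called higher with that fold. For all 19 the 3 shBRG1 arrays lay above the 3 NSC arrays. Among the 42 other members, the shBRG1 arrays lay entirely above in 10, entirely below in 10 and overlapped NSC in 22. Over all named genes 35.5% showed no overlap (20.3% with shBRG1 above, 15.3% below). At or above the median level 54.6% showed none, against 73.5% of the 49 members there (29 above, 7 below). Of the 19 calls, 12 held in each fit that left out 1 array, and the total was 12 to 14 in these fits (12 without shBRG1 replicate 2 or 3). The same fits called 10.8% to 12.4% of all genes, 5.64% to 7.09% as higher, so the background fell too. The labels do not say that the triplicates were separate cultures, so the p-values measure the spread between these arrays, which may be technical.

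**Figure D1:**
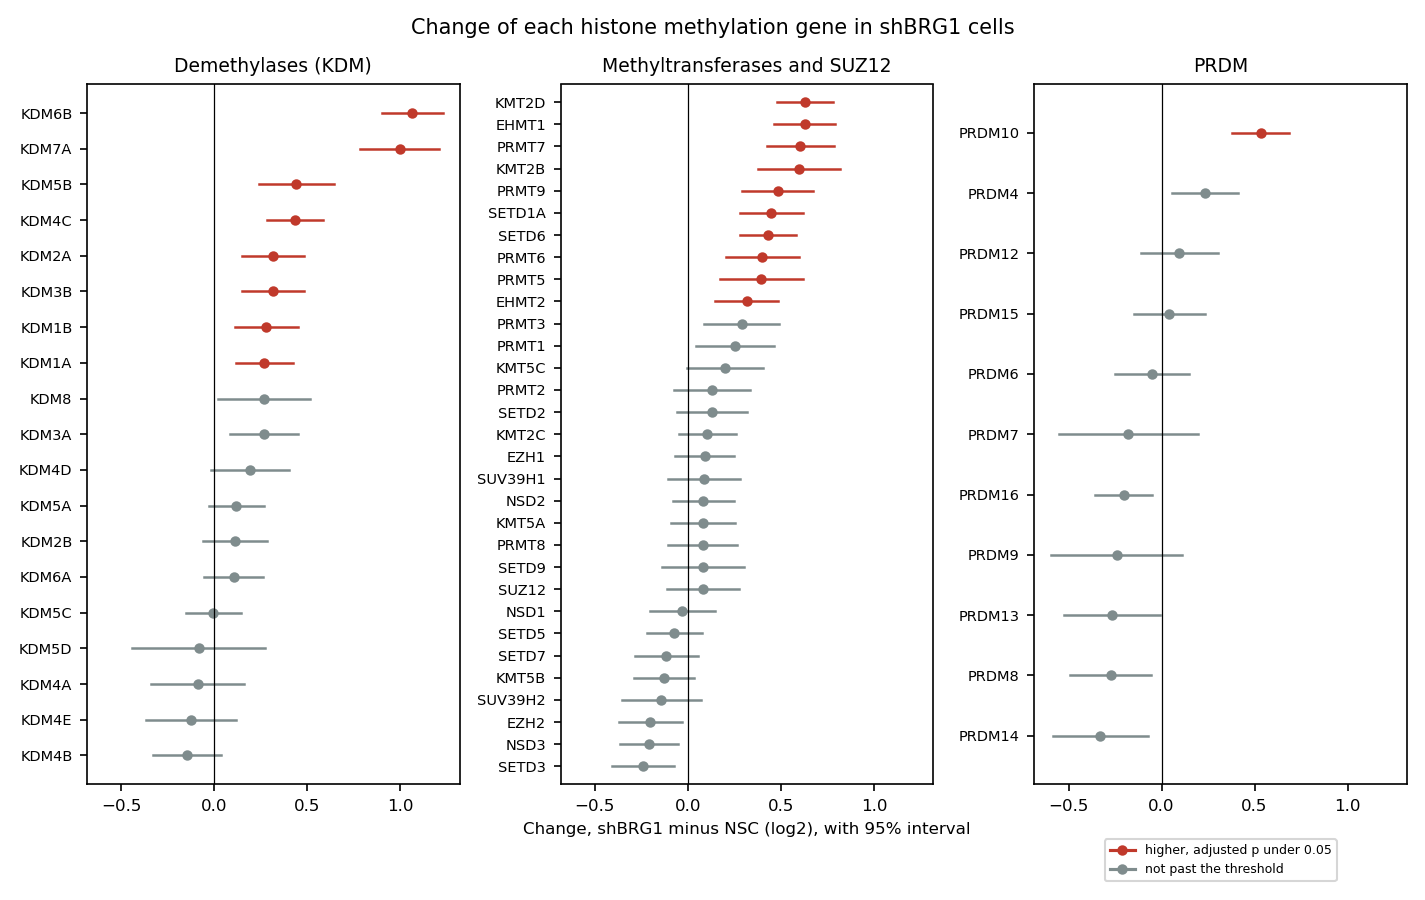
Change of each member in shBRG1 relative to NSC cells (log2, points) with its 95% interval (bars, from limma), by class, where red marks an adjusted p under 0.05. KDM6B and KDM7A stand apart at about 1 log2 unit, the other risers lie between 0.27 and 0.63, and no member is called lower.

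The largest change belonged to KDM6B (JMJD3), a demethylase that removes di- and trimethylation of H3K27 and so counters PRC2. Its level was 7.27, 7.38 and 7.23 in shBRG1 cells, against 6.21, 6.27 and 6.21 in NSC cells. The groups were separated by nearly 1 log2 unit, and the gene was 2.09-fold higher (change 1.07, SE 0.070, adjusted p = 2.63e-04), the 21st largest rise among all named genes. Its relative KDM6A (UTX), a subunit of the KMT2C and KMT2D complexes encoded on the X chromosome, had levels of 6.55, 6.66 and 6.52 in shBRG1 cells, against 6.47, 6.49 and 6.45 in NSC cells. All 3 shBRG1 values were slightly higher, and the change did not pass (0.10, 95% interval -0.056 to 0.26, adjusted p = 0.364). The intervals of these relatives did not overlap (0.90 to 1.23 for KDM6B).

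KDM7A, a Jumonji enzyme with a PHD finger that demethylates H3K9 and H3K27, rose almost as much. It measured 7.24, 7.36 and 7.14 in shBRG1 cells, against 6.38, 6.23 and 6.15 in NSC cells, and the lowest shBRG1 array was well above the highest NSC array. The fold was 2.00 (change 1.00, SE 0.090, adjusted p = 7.35e-04), which ranked 34th among all rises. KDM6B and KDM7A kept their calls in all 16 alternatives, with leave-one-out changes of 1.02 to 1.09 and 0.94 to 1.06.

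The promoters of the 4 members with the largest rises (KDM6B, KDM7A, KMT2D and EHMT1) are shown. The genes were picked by their rise, so their shared direction follows from the choice, and shared control was not tested. The promoters are given as in RefSeq on GRCh38.p14, from 250 bases before to 50 after a gene start, 5′ to 3′ along the gene. They lie at chr17:7833967-7834266, plus strand (KDM6B), chr7:140176934-140177233, minus strand (KDM7A), chr12:49060745-49061044, minus strand (KMT2D) and chr9:137618755-137619054, plus strand (EHMT1). Capitals mark the GC box letters GGGCGG, searched on both strands, and the E-box letters CACGTG, which read the same on both strands and are the core recognised by MYC family proteins; no matches of the 2 overlapped.
KDM6B: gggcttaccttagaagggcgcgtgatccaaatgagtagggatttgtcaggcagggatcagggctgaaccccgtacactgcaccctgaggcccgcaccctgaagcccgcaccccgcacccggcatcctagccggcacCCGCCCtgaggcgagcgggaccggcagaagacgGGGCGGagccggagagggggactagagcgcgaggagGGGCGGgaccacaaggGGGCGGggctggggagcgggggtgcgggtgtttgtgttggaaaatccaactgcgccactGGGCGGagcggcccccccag
KDM7A: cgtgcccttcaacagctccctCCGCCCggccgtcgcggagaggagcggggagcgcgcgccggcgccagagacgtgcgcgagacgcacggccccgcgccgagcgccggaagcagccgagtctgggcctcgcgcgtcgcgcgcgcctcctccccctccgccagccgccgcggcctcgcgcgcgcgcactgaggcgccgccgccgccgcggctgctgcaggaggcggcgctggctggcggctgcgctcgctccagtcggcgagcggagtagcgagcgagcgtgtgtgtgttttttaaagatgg
KMT2D: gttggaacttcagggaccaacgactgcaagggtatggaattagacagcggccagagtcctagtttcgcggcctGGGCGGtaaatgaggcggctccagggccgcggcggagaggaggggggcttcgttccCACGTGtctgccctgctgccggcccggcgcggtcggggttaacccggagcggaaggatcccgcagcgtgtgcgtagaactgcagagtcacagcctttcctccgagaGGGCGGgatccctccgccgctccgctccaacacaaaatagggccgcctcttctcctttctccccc
EHMT1: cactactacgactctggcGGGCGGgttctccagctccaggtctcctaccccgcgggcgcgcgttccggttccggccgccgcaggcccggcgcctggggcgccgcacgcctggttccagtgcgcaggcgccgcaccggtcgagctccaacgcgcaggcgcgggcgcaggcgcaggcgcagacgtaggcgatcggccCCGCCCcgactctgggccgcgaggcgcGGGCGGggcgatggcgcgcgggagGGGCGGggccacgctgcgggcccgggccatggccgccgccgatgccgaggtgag
The windows hold 5, 1, 2 and 4 GC boxes in this order, and that of KMT2D also holds 1 E-box. Their GC content is 69.3%, 77.0%, 65.0% and 79.3%. RefSeq lists a further start of KDM6B, whose window (GC content 53.0%) has neither set of letters. GC boxes are common: they occur in 45.0% of the 35116 promoter windows of this length, and E-boxes in 7.26%. A match describes letters and not a bound factor.

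Of the 6 measured demethylases of H3K4, 3 rose, of which KDM5B alone kept its call whichever array was dropped. Over all named genes 9.78% were called higher, and 17.4% of those at or above the median level, where 4 of the 6 lay. KDM5B (JARID1B), which removes trimethylation of H3K4, measured 8.37, 8.37 and 8.17 in shBRG1 cells, against 7.90, 7.77 and 7.92 in NSC cells. The shBRG1 arrays were all higher (1.36-fold, change 0.44, SE 0.086, adjusted p = 0.0125). Its relatives did not pass: KDM5A had a change of 0.12 (adjusted p = 0.265), KDM5C one of -0.0042 (adjusted p = 0.975) at a level below the median of named genes, and the dim KDM5D -0.082. KDM1A (LSD1), the flavin-dependent eraser of mono- and dimethylated H3K4, measured 9.68, 9.63 and 9.59 in shBRG1 cells, against 9.39, 9.37 and 9.32 in NSC cells. The groups did not overlap although the rise was small (1.21-fold, change 0.27, SE 0.066, adjusted p = 0.0295). Its paralog KDM1B (LSD2) measured 7.21, 7.23 and 7.13 in shBRG1 cells, against 6.96, 6.82 and 6.96 in NSC cells, again with every shBRG1 array above (change 0.28, SE 0.073, adjusted p = 0.0383). Leaving out any array ended the calls of KDM1A and KDM1B (adjusted p 0.0626 to 0.0972 and 0.0657 to 0.108), and over all alternatives their adjusted p ran from 5.09e-04 to 0.0981 and 0.00928 to 0.116.

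Among demethylases of H3K9 and H3K36, KDM4C, KDM3B and KDM2A rose. KDM4C (JMJD2C), which acts on trimethylated H3K9 and H3K36, measured 5.98, 6.03 and 5.93 in shBRG1 cells, against 5.56, 5.52 and 5.56 in NSC cells, with little spread in either group (1.35-fold, change 0.43, SE 0.065, adjusted p = 0.00474). The other measured KDM4 genes did not follow: the changes were -0.089 for KDM4A, -0.15 for KDM4B, 0.19 for KDM4D and -0.12 for KDM4E, a dim transcript, with adjusted p between 0.199 and 0.645. The 95% intervals of KDM4A (-0.34 to 0.16) and KDM4B (-0.33 to 0.037) lie below the change of KDM4C. KDM3B, an eraser of mono- and dimethylated H3K9, measured 8.75, 8.85 and 8.74 in shBRG1 cells, against 8.49, 8.50 and 8.39 in NSC cells (change 0.32, SE 0.071, adjusted p = 0.0216). KDM3A, its hypoxia-inducible paralog, was higher on all shBRG1 arrays (6.31, 6.52 and 6.39 in shBRG1 cells, against 6.19, 6.10 and 6.14 in NSC cells) but just missed the threshold (change 0.27, SE 0.078, adjusted p = 0.0558). KDM2A, which binds CpG islands through a CXXC domain and demethylates H3K36, measured 8.32, 8.31 and 8.33 in shBRG1 cells, against 7.95, 7.95 and 8.10 in NSC cells. Its 3 shBRG1 arrays were nearly equal (change 0.32, SE 0.071, adjusted p = 0.0219), whereas KDM2B, the CpG-island subunit of a variant Polycomb complex, overlapped between groups (0.11, 95% interval -0.062 to 0.28). KDM8 had a change of 0.27 (adjusted p = 0.133).

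The calls of KDM2A and KDM3B rest on all arrays being kept. Of the 6 fits that each drop an array, KDM2A passed when NSC replicate 3 was dropped and in no other (adjusted p 0.0258 to 0.0708 over these fits, 0.00145 to 0.0769 over all alternatives), and KDM3B when NSC replicate 2 was dropped (0.0457 to 0.0692 and 8.47e-04 to 0.0760). The number of demethylases called was accordingly 4 or 5 without any 1 array, against 8 with all of them. The 4 called in each of these fits were KDM6B, KDM7A, KDM5B and KDM4C.

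Of 5 measured H3K4 methyltransferases of the KMT2 and SETD families 3 rose, with a median change of 0.45, or 0.28 with the dim PRDM9, an H3K4 methyltransferase counted here among the PRDM genes. The 5 lay at or above the median level, where 17.4% of all genes were called higher. KMT2D (MLL4), which monomethylates H3K4 at enhancers, measured 7.93, 7.999 and 7.91 in shBRG1 cells, against 7.33, 7.29 and 7.33 in NSC cells, a tight and complete separation (1.55-fold, change 0.63, SE 0.065, adjusted p = 0.00124). KMT2B (MLL2), a promoter enzyme, measured 7.08, 7.26 and 6.95 in shBRG1 cells, against 6.53, 6.42 and 6.55 in NSC cells (1.51-fold, change 0.60, SE 0.094, adjusted p = 0.00573). SETD1A, the catalytic subunit of a complex that trimethylates H3K4, measured 6.66, 6.53 and 6.72 in shBRG1 cells, against 6.16, 6.22 and 6.19 in NSC cells (1.37-fold, change 0.45, SE 0.073, adjusted p = 0.00655). In each of these the lowest shBRG1 array exceeded the highest NSC array by at least 0.3 log2 units. KMT2C (MLL3), the paralog of KMT2D, measured 9.95, 9.99 and 9.89 in shBRG1 cells, against 9.82, 9.87 and 9.82 in NSC cells, higher on each shBRG1 array by a margin too small for the test (0.10, 95% interval -0.048 to 0.26, adjusted p = 0.339). The interval of KMT2D (0.48 to 0.78) does not meet that of KMT2C. SETD7, a monomethyltransferase of H3K4 and of non-histone proteins, had a change of -0.12 (adjusted p = 0.336).

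The partner enzymes of euchromatic H3K9 dimethylation both rose. EHMT1 (GLP) measured 8.03, 8.03 and 7.98 in shBRG1 cells, against 7.48, 7.33 and 7.36 in NSC cells, and was 1.54-fold higher (change 0.63, SE 0.070, adjusted p = 0.00169). EHMT2 (G9a) measured 6.93, 7.10 and 6.95 in shBRG1 cells, against 6.66, 6.70 and 6.68 in NSC cells, a smaller rise without overlap (change 0.32, SE 0.073, adjusted p = 0.0244), and of the fits with 1 array dropped it passed in that without shBRG1 replicate 1 alone (adjusted p 0.0486 to 0.0733 over the 6 fits, 0.00535 to 0.0831 over all alternatives). The SUV39H enzymes, which trimethylate H3K9 in constitutive heterochromatin, overlapped between groups: SUV39H1 measured 6.98, 7.18 and 7.16 in shBRG1 cells, against 7.09, 7.01 and 6.95 in NSC cells (0.085, 95% interval -0.11 to 0.28), and SUV39H2 had a change of -0.14 (adjusted p = 0.351).

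PRC2, the H3K27 methyltransferase, showed no call among its 3 measured subunits. The 3 lay at or above the median level, where 29.2% of all genes were called, so the absence of calls among 3 genes is not far from that share. EZH2, its main catalytic subunit in dividing cells, measured 8.96, 9.11 and 9.06 in shBRG1 cells, against 9.27, 9.17 and 9.29 in NSC cells. All shBRG1 arrays were below all NSC arrays, with a difference that did not pass (-0.20, 95% interval -0.37 to -0.031, adjusted p = 0.108, unadjusted p = 0.0266). Cyclic loess, a filter on dim genes, and limma's trend and robust options each called it lower (adjusted p 0.0130 to 0.267 over all alternatives). EZH1, the alternative catalytic subunit, measured 7.61, 7.72 and 7.61 in shBRG1 cells, against 7.55, 7.54 and 7.59 in NSC cells (0.090, 95% interval -0.067 to 0.25, adjusted p = 0.436), and SUZ12, the scaffold, 9.39, 9.51 and 9.64 in shBRG1 cells, against 9.48, 9.44 and 9.38 in NSC cells (0.080, 95% interval -0.11 to 0.27), with overlapping groups. The changes of the H3K27 eraser KDM6B and of EZH2 thus had opposite signs, of which that of KDM6B passed.

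Writers of H3K36 and H4K20 had no call (limma, 0 of 4 and 0 of 3, and 1 of the H3K36 and 0 of the H4K20 writers at an unadjusted p of 0.05). All of them lay at or above the median level, where 29.2% of all genes were called. With so few genes the absence of calls is not far from that share. SETD2, which trimethylates H3K36 and travels with RNA polymerase II, measured 6.83, 6.89 and 6.97 in shBRG1 cells, against 6.87, 6.77 and 6.67 in NSC cells, overlapping between groups (0.13, 95% interval -0.056 to 0.32). NSD1 and NSD2, which dimethylate H3K36, had changes of -0.030 and 0.083, and NSD3 was lower on all shBRG1 arrays (7.92, 8.005 and 7.92 in shBRG1 cells, against 8.21, 8.11 and 8.15 in NSC cells) without passing (-0.21, 95% interval -0.37 to -0.053, adjusted p = 0.0749). KMT5A, the H4K20 monomethyltransferase, had a change of 0.081, and KMT5B and KMT5C, which add further methyl groups there, -0.13 and 0.20, with adjusted p of 0.523, 0.273 and 0.171.

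Arginine methyltransferases were higher as far as they were called. Of 8 PRMT genes 4 rose and 0 fell (limma, also 0 lower at an unadjusted p of 0.05), all 8 changes were above 0, and their median was 0.34. Over all genes 9.78% were called higher, and 17.4% of those at or above the median level, where 7 of the 8 lay. Changes above 0 were found in 7612 of all 14883 genes and in 4384 of the 7442 at or above the median level. PRMT7, which makes monomethylarginine, measured 7.85, 8.04 and 7.85 in shBRG1 cells, against 7.28, 7.33 and 7.32 in NSC cells (1.52-fold, change 0.60, SE 0.078, adjusted p = 0.00266). PRMT9, a symmetric dimethylating enzyme known for a splicing factor substrate, measured 7.47, 7.46 and 7.36 in shBRG1 cells, against 7.08, 6.86 and 6.93 in NSC cells (change 0.48, SE 0.081, adjusted p = 0.00737). PRMT6, which dimethylates arginine 2 of H3 asymmetrically, measured 7.61, 7.78 and 7.85 in shBRG1 cells, against 7.39, 7.38 and 7.27 in NSC cells (change 0.40, SE 0.084, adjusted p = 0.0172). Each of these was higher on every shBRG1 array. PRMT5, the main symmetric dimethylating enzyme, measured 7.96, 7.98 and 7.88 in shBRG1 cells, against 7.48, 7.43 and 7.74 in NSC cells (change 0.40, SE 0.095, adjusted p = 0.0282), where NSC replicate 3 lay apart from the other NSC arrays and nearer the shBRG1 ones. PRMT1, the main asymmetric enzyme, measured 6.39, 6.50 and 6.43 in shBRG1 cells, against 6.22, 6.02 and 6.32 in NSC cells and did not pass (0.25, 95% interval 0.042 to 0.46, adjusted p = 0.103), nor did PRMT3 (0.29, adjusted p = 0.0590), PRMT2 (0.13) or the dim, brain-restricted PRMT8 (0.081).

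With 1 array dropped, PRMT5 passed when that array was NSC replicate 3 and in none of the other 5 fits (adjusted p 0.0136 to 0.0858 over the 6 fits, 0.00314 to 0.0880 over all alternatives). PRMT6 lost it without NSC replicate 3 or shBRG1 replicate 2 or 3 (0.0200 to 0.0609 and 0.00167 to 0.0617). CARM1, the arginine methyltransferase also known as PRMT4, whose symbol falls outside the rule, rose too: it measured 8.93, 8.95 and 8.93 in shBRG1 cells, against 8.34, 8.11 and 8.35 in NSC cells (1.59-fold, change 0.67, SE 0.083, adjusted p = 0.00234).

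SETD proteins act on more than histones. SETD6, which is known to methylate the NF-kB subunit RELA, measured 6.47, 6.54 and 6.48 in shBRG1 cells, against 6.05, 6.04 and 6.12 in NSC cells and rose (1.35-fold, change 0.43, SE 0.065, adjusted p = 0.00506). SETD3, the histidine methyltransferase of actin, pointed the other way: it measured 9.05, 9.02 and 8.89 in shBRG1 cells, against 9.23, 9.19 and 9.26 in NSC cells, below NSC on every shBRG1 array, and just missed the threshold (-0.24, 95% interval -0.41 to -0.073, adjusted p = 0.0598). SETD5 had a change of -0.072 and SETD9 0.080 (adjusted p = 0.517 and 0.634).

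**Figure D2:**
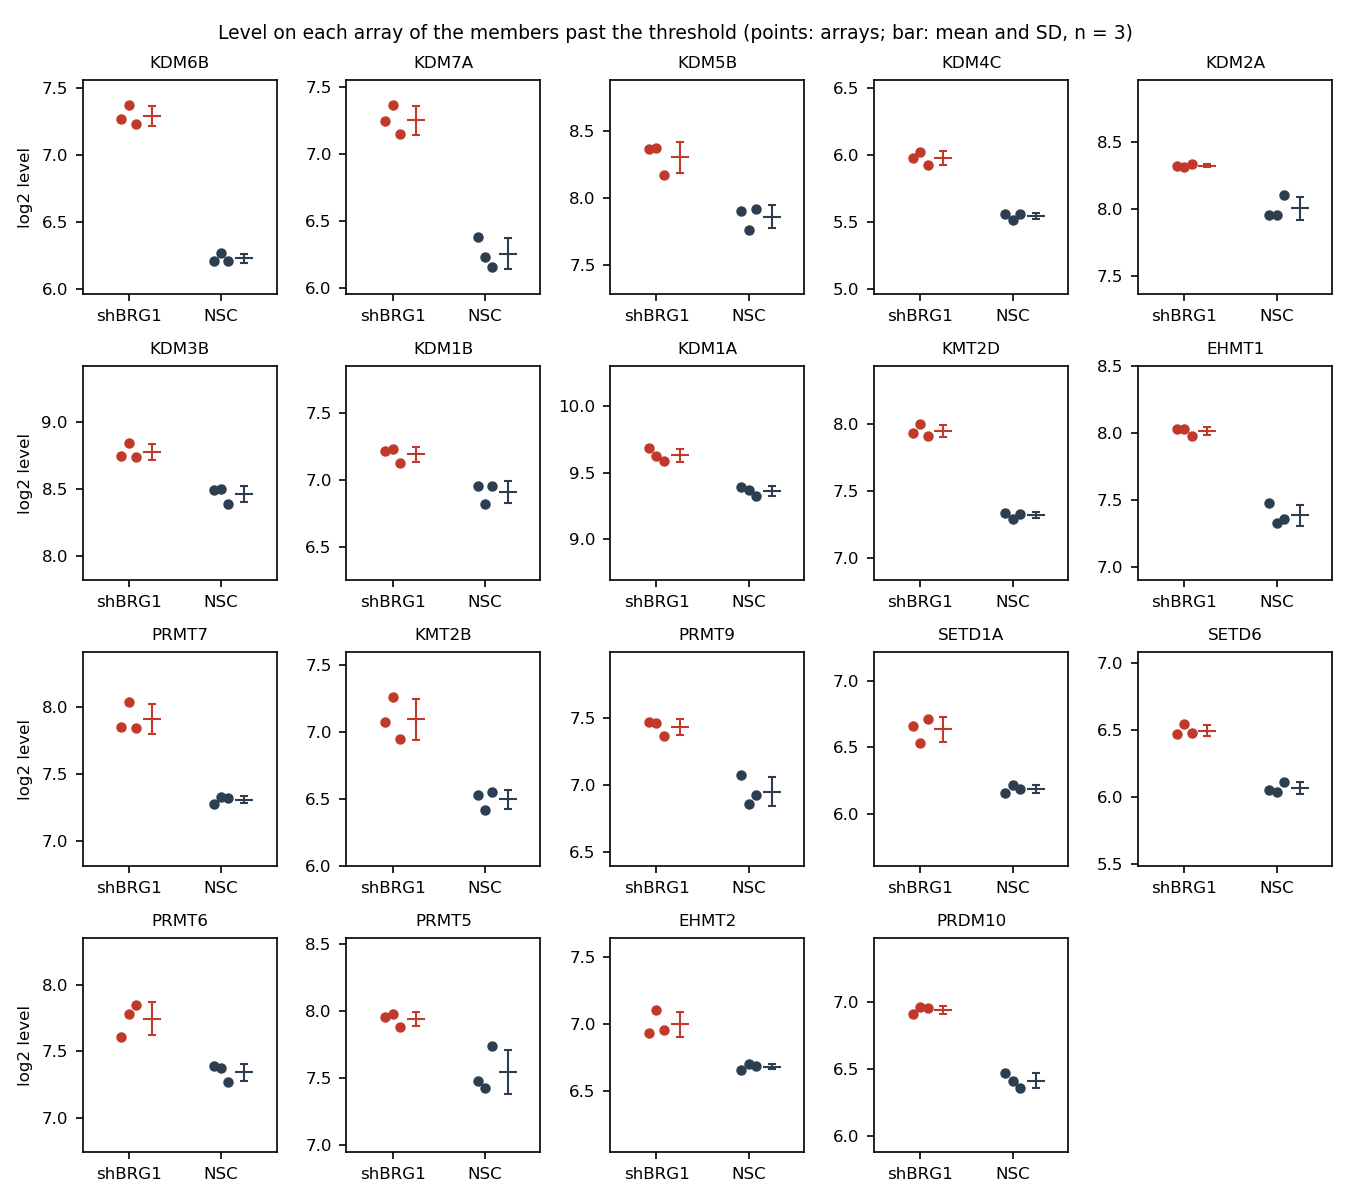
Log2 level on each array of the 19 members past the threshold, in shBRG1 (red, left) and NSC cells (dark, right), with the mean and SD of 3 arrays as a bar beside the points; every panel spans 1.6 log2 units. Demethylases come first, methyltransferases next and PRDM10 last, and in each panel the shBRG1 points lie above the NSC points.

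Erasers and writers were then set side by side. Of the demethylases 8 of 19 rose (42.1%), and of the methyltransferases 10 of 30 (33.3%), with none lower in either class (limma; at an unadjusted p of 0.05, 0 demethylases and 3 methyltransferases were lower). The median change was 0.27 for demethylases and 0.12 for methyltransferases, with ranges of -0.15 to 1.07 and -0.24 to 0.63. Among members at or above the median level the shares were 8 of 16 demethylases and 10 of 28 methyltransferases, with medians of 0.27 and 0.13. The shBRG1 arrays lay entirely above NSC for 13 demethylases and 14 methyltransferases, and entirely below for 1 (KDM4B) and 6 (EZH2, KMT5B, NSD3, SETD3, SETD5 and SETD7). Of all genes at or above the median level, where most members of both classes lie, 33.8% lay entirely above and 20.8% entirely below, and 17.4% were called higher. Without any 1 array the counts were 4 or 5 demethylases and 7 to 9 methyltransferases. The difference between the classes was not tested. Over whole classes the share called was larger among methyltransferases in each of these 6 fits, in places barely. Without NSC replicate 2 or 3 it was 8 of 30, against 5 of 19 demethylases. Among members at or above the median level the same calls are 8 of 28 and 5 of 16, so the order turns. The fits thus give no steady order of the classes.

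Class medians were also taken on each array. The median demethylase level was 6.55, 6.66 and 6.68 in the shBRG1 arrays, against 6.38, 6.27 and 6.21 in the NSC arrays. The median methyltransferase level was 7.54, 7.59 and 7.47 in the shBRG1 arrays, against 7.30, 7.31 and 7.29 in the NSC arrays. In both classes all shBRG1 arrays were above all NSC arrays. The median PRDM level ran the other way, at 4.44, 4.41 and 4.43 in the shBRG1 arrays, against 4.78, 4.51 and 4.81 in the NSC arrays. With 11 PRDM genes this median is the level of a single gene, on every array the dim and uncalled PRDM8. It therefore does not show a fall of the whole class. The mean PRDM levels lay closer together, at most 4.66 in the shBRG1 arrays and at least 4.67 in the NSC arrays.

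By residue, calls fell on both sides of H3K4 and H3K9. For H3K4, 3 of 6 erasers and 3 of 5 writers rose (PRDM9 left aside; median changes 0.19 and 0.45). For H3K9 the numbers were 3 of 8 and 2 of 4 (0.23 and 0.20). For H3K27 and H3K36 the calls lay with the erasers, 1 of 2 and 1 of 2, against 0 of 2 and 0 of 4 writers. Over all named genes 9.78% were called higher (median change 0.0059), and 17.4% of those at or above the median level (median change 0.057). These groups are too small to compare by count, and each enzyme was placed by its main histone substrate, although several have others.

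**Figure D3:**
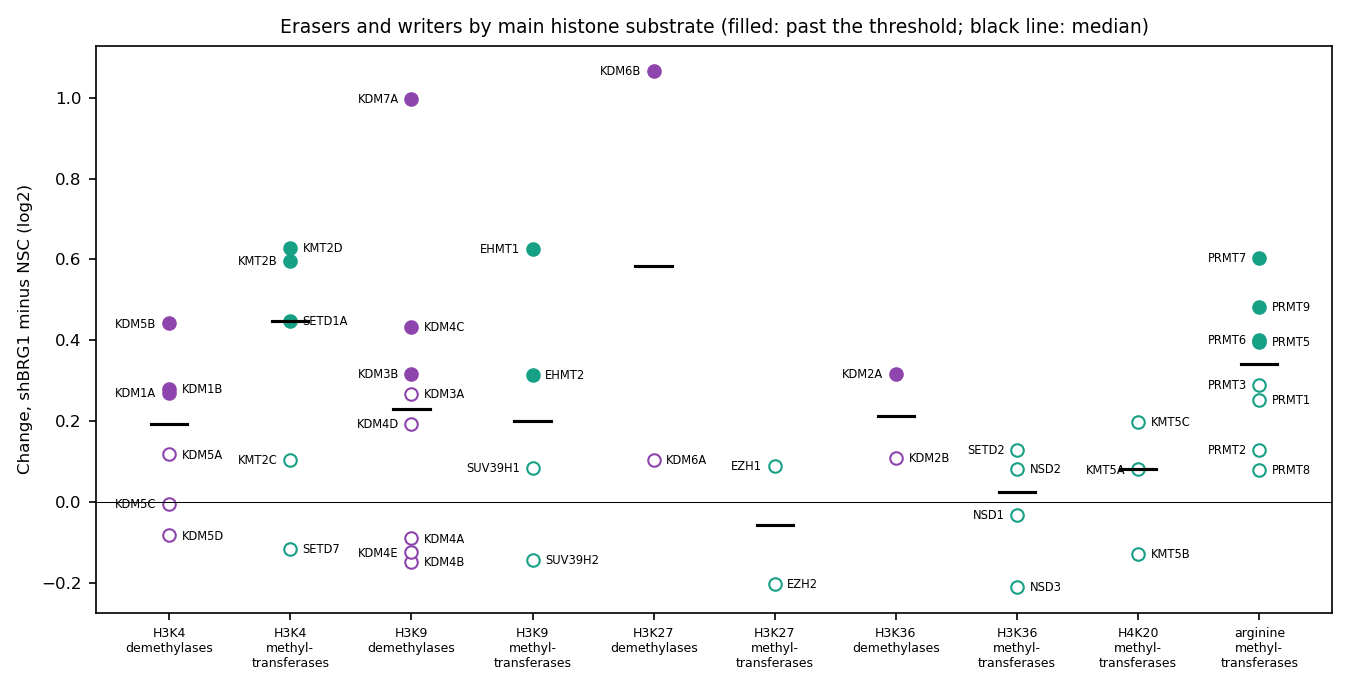
Change of each demethylase (purple) and methyltransferase (green) in shBRG1 relative to NSC cells (log2), by the histone residue it mainly acts on; filled points passed the threshold and black lines are medians. KDM6B (1.07) lies far above the H3K27 writers EZH1 (0.090) and EZH2 (-0.20), whereas risers occur among both erasers and writers of H3K4 and H3K9.

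PRDM proteins carry a PR domain related to the SET domain, and most are known as zinc finger transcription factors rather than as enzymes. The median change of the 11 measured PRDM genes was -0.18, but -0.0583 without NSC replicate 1, -0.0567 without shBRG1 replicate 2 and -0.103 without NSC replicate 3. The 4 of them at or above the median level all had changes above 0, with a median of 0.16. Of the 7442 named genes at such levels 4384 had changes above 0. PRDM10 was the 1 that rose: it measured 6.91, 6.96 and 6.96 in shBRG1 cells, against 6.47, 6.41 and 6.36 in NSC cells (1.45-fold, change 0.53, SE 0.066, adjusted p = 0.00236), with complete separation. PRDM4 was higher on every shBRG1 array without passing (0.23, 95% interval 0.056 to 0.41, adjusted p = 0.0791). The developmental factors PRDM8, PRDM14 and PRDM16 were lower on every shBRG1 array (-0.27, -0.33 and -0.20; adjusted p = 0.0900, 0.0822 and 0.0778), and PRDM13 overlapped (-0.27). Their levels lay below the median gene, where values may be background. PRDM14 was called lower without NSC replicate 1 and PRDM8 without NSC replicate 2 (adjusted p 0.0275 and 0.0249, within 0.0275 to 0.203 and 0.0249 to 0.223). PRDM12, a factor of sensory neurons and the neural crest, had a change of 0.095, PRDM15 0.041, PRDM6 -0.051, PRDM7 -0.18 and the meiotic H3K4 methyltransferase PRDM9 -0.24, all with overlapping groups.

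Level and call went together. None of the 12 members below the median gene was called (limma; 0 higher and 4 lower at an unadjusted p of 0.05), and 10 of their 12 changes were below 0. Few genes of such levels were called at all. In deciles 1 to 5 of level 0.403% to 5.31% of all genes were called higher and 1.01% to 4.43% lower. With 12 members, the absence of calls is therefore near the background. Median changes of all genes in these deciles were also below 0 (-0.035 to -0.0042). Of the 49 others 19 were called, 14 of them among the 27 members in the eighth and ninth deciles of level. In those deciles 20.7% and 22.6% of all genes were called higher.

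**Figure D4:**
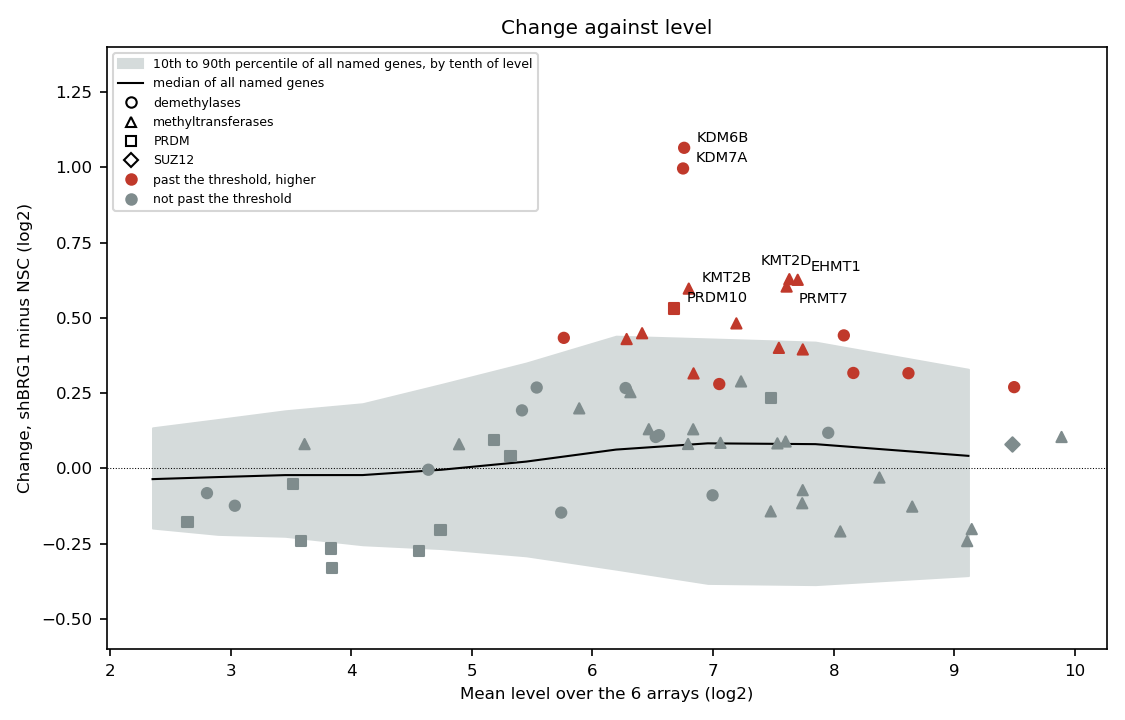
Change in shBRG1 relative to NSC cells (log2) against the mean level over 6 arrays (log2) for the members, by class; the grey band spans the 10th to 90th percentile of all named genes in each decile of level and the black line is their median. The median of all genes lies near 0 at every level while the band widens, to -0.39 to 0.42 in the ninth decile, and 11 members lie above its upper edge (KDM6B, KDM7A, KMT2D, EHMT1, PRMT7, KMT2B, PRDM10, PRMT9, SETD1A, KDM5B and KDM4C) and 4 dim PRDM genes below its lower edge (PRDM8, PRDM9, PRDM13 and PRDM14).

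Partners of these enzymes were called in both directions, 14 as higher (17.5%) and 9 as lower (11.2%) of 80 measured genes in 6 lists. Of these genes 71 lay at or above the median level, where 17.4% of all genes were called higher and 11.9% lower, so the shares were near the background. Of 13 measured COMPASS and related partners 3 rose and 1 fell (median 0.18). MEN1 (menin, a KMT2A and KMT2B cofactor, 0.42), HCFC1 (a host cell factor that joins SETD1 and KMT2 complexes, 0.35) and BOD1 (0.39) rose, and HCFC2 fell by 0.71 on the log2 scale. The shared core subunits WDR5, RBBP5 and DPY30 had changes of 0.0066, 0.045 and 0.15 (adjusted p = 0.973, 0.709 and 0.236).

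Of 8 measured accessory PRC2 subunits 2 fell and none rose (limma; median -0.070; 1 higher and 3 lower at an unadjusted p of 0.05). They were PHF19, a Polycomb-like subunit that binds H3K36 methylation (-0.41, adjusted p = 0.0143), and LCOR, whose locus also encodes a PRC2 cofactor (-0.36, adjusted p = 0.0169). Of 23 PRC1 subunits and readers of methylated histones 4 rose and 2 fell (median -0.0016). The chromobox protein CBX6, a reader of H3K27 methylation, measured 7.83, 8.10 and 8.01 in shBRG1 cells, against 6.999, 6.73 and 7.04 in NSC cells and was 2.09-fold higher (change 1.06, SE 0.11, adjusted p = 0.00125). PCGF5, the RING partner of a variant PRC1, moved as far the other way, at 6.98, 7.04 and 6.98 in shBRG1 cells, against 8.38, 8.18 and 8.06 in NSC cells (2.31-fold lower, change -1.21, SE 0.094, adjusted p = 4.29e-04). PCGF3, its close relative, fell by 0.49 on the log2 scale, whereas PCGF1, the partner of KDM2B, rose (0.30), as did L3MBTL2 (0.35) and the heterochromatin protein CBX5 (0.31).

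Around KDM1A, 11 partners were measured, of which 3 rose and 1 fell. RCOR1 (CoREST), the scaffold that allows KDM1A to act on nucleosomes, measured 8.14, 8.31 and 8.34 in shBRG1 cells, against 9.16, 9.04 and 9.02 in NSC cells, and was 1.75-fold lower (change -0.81, SE 0.083, adjusted p = 0.00122). HDAC2 (0.32), PHF21A (0.32) and GSE1 (0.29) rose. HDAC2, like CBX6 above, had 2 probe sets, of which the brighter is given. With probe sets averaged, 13 related genes were called higher, against 14. Of 14 measured writers and erasers with other symbols 2 rose (CARM1, given above, and the Jumonji protein RIOX2, 0.32) and 1 fell (the hairless demethylase HR, -0.30, adjusted p = 0.0461). Genes of methyl donor and 2-oxoglutarate metabolism were split as well, with 2 higher and 2 lower of 11 measured. AHCY, which clears the methyltransferase product S-adenosylhomocysteine, rose (0.45, adjusted p = 0.00522), as did AHCYL1 (0.27). OGDH, the 2-oxoglutarate dehydrogenase of the citric acid cycle, fell by 0.63 (adjusted p = 0.00376) and methionine synthase MTR by 0.23 on the log2 scale (adjusted p = 0.0432).

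Across promoters, 56 of the 61 members had at least 1 RefSeq window (81 windows). A GC box stood in at least 1 window of 46 of these genes (82.1%), against 48.3% of the 27305 genes in the table. Among members that rose it was 15 of 19, and among the others 31 of 37. A gene with more windows has more places for a match, so shares by window are given too. A GC box stood in 74.1% of the members' windows (64% for risers, 78.6% for the others), against 45% of all windows. The genes in the table were not matched to the members by level. The E-box stood in 4 of 19 risers (EHMT2, KDM4C, KMT2D and SETD6) and 5 of 37 others, against 8.77% of all genes. By window it stood in 16% for risers and 10.7% for the others, against 7.26% of all windows. Median GC content was 65.3% over windows of risers and 69.8% over those of the other members, against 58.7% over all windows.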

How the data were processed

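Total RNA of 6 samples, 3 infected with the BRG1 hairpin and 3 with the non-silencing control, was hybridised on Affymetrix arrays (1 colour, 1 array a sample), as the labels' protocols state. The deposited values are log2 levels per probe set, for which the submitters' processing notes name RMA, oligo 1.27, limma 3.19 and R 3.1.0; RMA sets arrays to a common distribution, so a shift of all genes would not be seen, and it can understate changes of dim genes. The log2 scale was taken from the values (1.19 to 13.8). The number of arrays limits the precision (median standard error 0.091 on the log2 scale), and no genome build is given in these sources.

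A platform annotation named 15828 of 52299 probe sets, and all symbols were updated through the GRCh38.p14 gene table. The brightest probe set by the mean of 6 arrays stood for a gene, which gave 14883 genes and set aside 945 probe sets. Groups follow the lentivirus label. The test was limma's (version 3.58.1, R 4.3.3; lmFit, then eBayes; two-sided, no covariates) of shBRG1 minus NSC, adjusted over all named genes by Benjamini and Hochberg with a threshold of 0.05. An exact test of 3 against 3 arrays cannot go below 0.1. In simulated data of 14883 genes with 3 arrays per group, 55 of 100 true changes of size 0.5 and 86 of 100 of size 1 were found, 8 of 149 calls were false, and data without any change gave 0 calls. The simulated noise was independent and normal, and far fewer genes changed than the 17.0% called in the real data. These numbers therefore check the procedure and need not hold for the real arrays.

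The members and lists were chosen with earlier results of these data known. Every member may be named. Values per array are given for called members and for 14 well-known ones where measured. Outside that plan they are also given for the uncalled KDM3A, KMT2C, EZH1, NSD3 and SETD3, and for some called related genes. Up to 4 called genes of each related list are named by smallest p. WDR5, RBBP5, DPY30, PCGF1, CBX5 and L3MBTL2 were added after their values were seen. Alternatives were other scalings (array medians, cyclic loess), leaving out dim genes, averaging probe sets, trend and robust options, array weights, a replicate block, leaving out each array, a fold of 1.5, an adjusted p of 0.01 and a test of every probe set. Figures were drawn with matplotlib 3.10.9.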

Additional observations from a re-analysis of the deposited data

How the results depend on the processing

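Counts of calls moved with the settings, and the 12 members named here were called in every alternative at an adjusted p of 0.05 without a limit on fold: KDM6B, KDM7A, KDM5B, KDM4C, KMT2D, KMT2B, SETD1A, EHMT1, PRMT7, PRMT9, SETD6 and PRDM10. The replicate block gave 12 higher members (4 demethylases) and 5 higher related genes. Same-numbered arrays did not deviate together (r = -0.044, -0.144 and -0.033). This check cannot say whether same-numbered samples were prepared together, because a small shared effect could go unseen. Testing every probe set gave 12 higher members (4 demethylases), with 5 related genes higher and 5 lower. An adjusted p of 0.01 left 11 members (3 demethylases), with 4 related genes higher and 4 lower, and a fold of 1.5 left 6 members (2 demethylases, 4 methyltransferases, 0 PRDM genes), with 2 related genes higher and 4 lower. Cyclic loess, leaving out dim genes, and trend and robust options each called 3 members lower, all of them methyltransferases (EZH2, NSD3 and SETD3), of which EZH2 made 1 PRC2 subunit lower; the last 2 of these settings called 2 PRDM genes higher. After cyclic loess the higher members numbered 17, without KDM1A and KDM1B, and of all genes 1212 were called higher and 1329 lower, against 1455 and 1070 in the deposited scaling; a fold of 1.5 left 600 calls, the replicate block 1608, every probe set 1259 and an adjusted p of 0.01 1086. Leaving out 1 array gave 12 to 14 members higher and 0 to 1 lower, 4 to 5 demethylases, 7 to 9 methyltransferases, 0 to 1 PRDM genes lower, and 6 to 10 related genes higher. The sign of uncalled members near 0 turned in a few settings: KDM5C (0.014 after centring), SUV39H1 (-0.010 when probe sets were averaged), and without 1 array KDM5C (-0.029 to 0.019), KDM5D (-0.26 to 0.059), NSD1 (-0.083 to 0.010), PRDM15 (-0.024 to 0.096), PRDM6 (-0.097 to 0.012) and SETD9 (-0.012 to 0.15). The levels of the 12 dim members may be background, which limits what their changes can show.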

Other observations

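NSD3, PRDM6 and SUV39H1 had 2 named probe sets each. Those of NSD3 had the same sign (-0.21 for the brighter, -0.11 for the dimmer), as had those of PRDM6 (-0.051 and -0.032), whereas SUV39H1 had 0.085 for the brighter set and -0.11 for the dimmer set, whose mean was 3.78 in shBRG1 cells and 3.89 in NSC cells; no probe set of the 3 genes passed.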
